A study of Rattus with 52 samples.

Results

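The genes described are those of the endothelin and nitric oxide systems, chosen by name: Edn1, Ednra, Ednrb, Ece1, Nos1, Nos2, Nos3, Ddah1, Ddah2 and Gucy1a1. Of these 10 genes, 9 were found by name among the 20624 genes of the deposited expression table, with Gucy1a1 under its older symbol Gucy1a3, and Nos2 was not analysed here. Polyadenylated RNA of left ventricle (LV) and kidney was sequenced from male Sprague Dawley rats that had either 5/6 nephrectomy (5/6Nx, removal of the right kidney and of the poles of the left one) or sham surgery (Sham) at 10 weeks of age. All rats, Sham and Control rats included, carried a peritoneal catheter, placed 5.5 weeks after surgery, and had their omentum removed. Rats of the PD groups received peritoneal dialysis by 3 exchanges of dialysate per day for 8 days from week 6, Control rats received no dialysate, and tissue was taken at 7 weeks. Each tissue had 7 libraries of 5/6Nx PD, 7 of 5/6Nx Control, 6 of Sham PD and 6 of Sham Control rats. Each 5/6Nx kidney is a remnant of a single kidney, and each library is from tissue powder that mixes all its cell types.

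Endothelin-1 is made as a precursor, cut to its active form by endothelin-converting enzyme and sensed by receptor A, which constricts vessels through smooth muscle, and by receptor B, which on endothelium clears the peptide and releases nitric oxide and in the collecting duct promotes sodium excretion. Nitric oxide is made from arginine by the nitric oxide synthases and is restrained by the methylarginine ADMA, which the enzyme DDAH1 breaks down. Nitric oxide acts by binding soluble guanylate cyclase, which makes cyclic GMP and relaxes smooth muscle. Both systems set vascular tone in heart and kidney, and both have long been studied in chronic kidney disease.

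The deposited values are log2 values that could be turned back into reads scaled to a common library size, called normalized reads below. A normalized read count compares libraries for 1 gene and is not corrected for gene length, so levels were not compared between genes. On the deposited scale 10, 100 and 1000 normalized reads lie at 6.50, 7.67 and 10.13, so that log2 differences come out too small for genes with few reads. Changes were tested with limma on the deposited log2 values across all genes with enough reads, and a gene was called at a Benjamini-Hochberg adjusted p under 0.05. Replicate numbers only name libraries, and the labels do not state which LV and kidney libraries came from the same rat, so tissues were compared with libraries treated as independent although a rat may have given both.

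Libraries held 16.7 to 111.8 M reads in the gene table (M, mega; median 44.2 M), with Sham PD kidney replicate 4 the shallowest. Summed reads of 7 cardiomyocyte genes were at least 1829770 in every LV library and at most 522 in every kidney library. Those of 5 genes of the thick ascending limb and macula densa were at least 132432 in kidney and at most 220.4 in LV. Over all genes, 5/6Nx Control kidney replicates 1 and 6 stood apart on the second principal component of the kidney libraries (8.07% of the variance), with scores of 46.8 and 28.5 against -18.9 to 7.17 in the other 5 libraries of the group. On the first component (57.0%), replicate 6 scored -4.84, the 5/6Nx kidney nearest to the Sham kidneys at -52.2 to -22.9. Replicate 1 scored 57.7 there, the highest of its group. Results that rest on them are also given without them.

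Levels differed widely between the tissues. In Sham Control rats 7 of the 9 genes differed between kidney and LV, 2 of them higher in kidney and 5 lower, where 78.6% of all genes tested did. Nos3, the synthase of endothelial cells, had a mean of 426 ± 61.9 normalized reads in kidney and 10728 ± 1436 in LV (SD, n = 6 each), 25.2-fold lower in kidney (log2 difference -4.33, limma adjusted p = 1.5e-15). Ednra, receptor A, was 11.3-fold lower in kidney, Gucy1a1, the alpha subunit of soluble guanylate cyclase, 4.62-fold lower, Ece1, the converting enzyme, 4.34-fold lower and Ednrb, receptor B, 1.80-fold lower. Ednrb ranged from 951 to 1697 normalized reads in kidney and from 1569 to 2916 in LV, so that its 2 ranges overlapped, while those of the other 4 did not. The tissues did not overlap for 6 of the 9 genes, where they did not for 62.1% of all genes tested. The 11 endothelial markers and the 11 markers of vascular smooth muscle and pericytes were all lower in kidney too, with medians of -3.08 and -2.64 on the log2 scale. Their part in the lower levels of the 5 genes was not tested.

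Ddah1, which breaks down ADMA, had 41915 ± 4616 normalized reads in kidney and 3365 ± 894 in LV, 12.5-fold higher in kidney (log2 difference 3.63, adjusted p = 6.3e-12). Nos1, the neuronal synthase that the macula densa also makes, was 4.28-fold higher in kidney, with a mean of 198 normalized reads in kidney and 46.4 in LV. Edn1, the precursor of endothelin-1, and Ddah2 did not pass the test between the tissues. Their log2 differences were -0.07 (95% interval -0.33 to 0.20) for Edn1 and -0.09 (-0.38 to 0.20) for Ddah2. Over the 8 groups of tissue, surgery and treatment, the ranges of Ednra, Ece1 and Nos3 lay higher in every LV group than in every kidney group, and those of Ddah1 lay higher in every kidney group. Within a tissue, groups next to each other in the order of their means overlapped for each of these 4 genes.

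With 5/6Nx, genes of both systems changed in the kidney. In PD rats 8 of the 9 genes passed the test, 5 higher and 3 lower in 5/6Nx than in Sham, where 40.1% of all genes tested passed. Without a filter on low reads 6 passed, where 6704 of 20422 genes did. In a joint fit of the 4 kidney groups 6 passed, where 7027 of 17096 genes did. In Control rats 4 of 9 passed, 2 higher and 2 lower, where 52.2% of all genes did. Without 5/6Nx Control replicates 1 and 6, 7 of 9 passed, where 9078 of the 16476 genes tested did. The calls of Edn1 (0.51), Ddah1 (-0.85) and Ddah2 (0.44) were kept without these 2 libraries. The median change of the 9 genes was 0.25 in PD rats and 0.29 in Control rats on the log2 scale, against -0.01 over all genes in both. The changes of the 9 genes had the same sign in both comparisons, 6 higher and 3 lower in 5/6Nx, and the comparisons share no library. Nos3 hardly changed in PD rats (0.04, 95% interval -0.34 to 0.42). The share of all genes with the same sign was not computed, so nothing particular to these genes is read from this count. The counts of 8 and 4 do not show that PD altered the response to 5/6Nx: the test of that difference called 0 of the 9 genes and 0% of all genes (limma, with 0 of the 9 under an unadjusted p of 0.05 and 0 called by limma-voom).

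**Figure D1:**
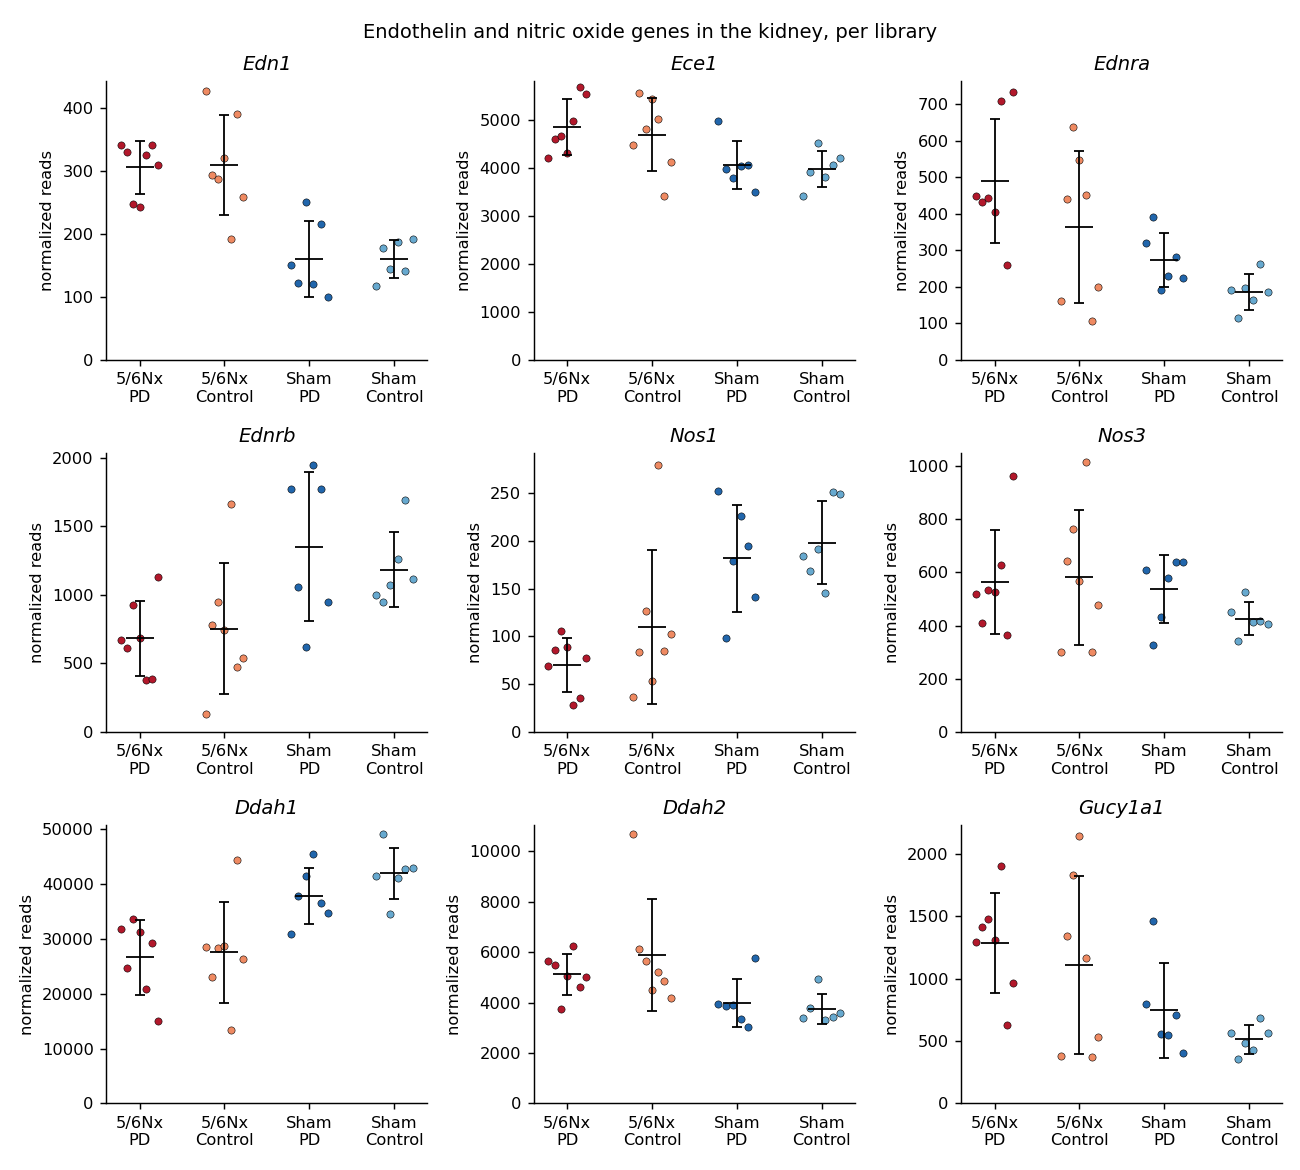
Normalized reads of the 9 genes in each kidney library, with 1 panel per gene, 1 point per library and group means with SD as bars. In 5/6Nx kidneys the points of Edn1 lie between 192 and 426, against 99.5 to 251 in Sham kidneys, and those of Ddah1 spread from 13333 to 44411.

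Edn1 rose in the 5/6Nx kidney under both treatments. Its lowest, median and highest values were 243, 325 and 342 normalized reads in 5/6Nx PD kidneys, against 99.5, 137 and 251 in Sham PD kidneys. In Control rats they were 192, 293 and 426 in 5/6Nx kidneys, against 118, 161 and 193 in Sham kidneys. Above every Sham library of the same treatment lay 5 of 7 5/6Nx PD and 6 of 7 5/6Nx Control libraries. The rise was 1.91-fold in PD rats (log2 change 0.67 ± 0.14 SE, limma adjusted p = 0.0014) and 1.93-fold in Control rats (0.64 ± 0.13, adjusted p = 0.0011), and it was called in each of the 13 fits that left out 1 library in either comparison.

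Ece1 moved less. In PD rats it averaged 4863 ± 581 normalized reads in 5/6Nx and 4066 ± 494 in Sham kidneys and rose by 0.25 ± 0.09 on the log2 scale (adjusted p = 0.042). This call was lost in 9 of 13 fits without 1 library (5/6Nx PD replicates 2, 5, 6 or 7 or Sham PD replicates 2 to 6), with adjusted p up to 0.087, and by limma-voom (adjusted p = 0.107). Without the filter on low reads the call was lost as well (adjusted p = 0.0502). In Control rats it averaged 4700 ± 761 in 5/6Nx and 3991 ± 374 in Sham kidneys, a log2 change of 0.22 (95% interval -0.01 to 0.45, adjusted p = 0.0999). This became a call without 5/6Nx Control replicate 6 (0.29, adjusted p = 0.013), without replicates 1 and 6 (0.31, adjusted p = 0.0092) and by limma-voom (0.33, adjusted p = 0.0094).

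The 2 receptors moved in opposite directions. Ednra had 259, 443 and 732 normalized reads (lowest, median and highest) in 5/6Nx PD kidneys, against 190.0, 255 and 390.2 in Sham PD kidneys, and 6 of 7 5/6Nx libraries lay above every Sham library. It rose 1.80-fold (log2 change 0.63 ± 0.18, adjusted p = 0.013) and was called in every fit without 1 library. In Control rats it had 107, 440.3 and 638 in 5/6Nx kidneys, against 114, 188 and 263 in Sham kidneys. The 5/6Nx Control group thus reached on both sides of the Sham Control group, with replicates 1, 6 and 7 at 160.1, 107 and 199 and the other 4 libraries at 440.3 or more. The log2 change of 0.57 (95% interval -0.03 to 1.17) did not pass the test (adjusted p = 0.10). It was called without replicate 6 (0.74, adjusted p = 0.018), without replicates 1 and 6 (0.91, adjusted p = 0.0024) and by limma-voom, which gives deviating libraries less weight (1.14, adjusted p = 0.0079).

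Ednrb was lower with 5/6Nx. In PD rats its lowest, median and highest values were 374, 671 and 1132 normalized reads in 5/6Nx kidneys, against 616, 1415 and 1948 in Sham kidneys. Only 3 of 7 5/6Nx PD libraries lay below every Sham PD library. Ednrb fell 1.98-fold (log2 change -0.86 ± 0.27, adjusted p = 0.020), a call that was lost without Sham PD replicate 4 (-0.74, adjusted p = 0.051). In Control rats the values were 127, 740.0 and 1664 in 5/6Nx kidneys, against 951, 1094 and 1697 in Sham kidneys, and 5 of 7 5/6Nx libraries lay below every Sham library. The change of -0.77 (95% interval -1.51 to -0.04) missed the threshold (adjusted p = 0.072), which it passed without 5/6Nx Control replicate 5 (-0.98, adjusted p = 0.015). Replicate 6 held the lowest value, and without replicates 1 and 6 the change was -0.37 (adjusted p = 0.173).

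The ratio of Ednra to Ednrb within a library, used here only to compare groups since it is not corrected for the lengths of the 2 transcripts, separated surgeries in the kidney. It ranged from 0.477 to 1.90 in 5/6Nx PD kidneys, against 0.117 to 0.369 in Sham PD kidneys, and from 0.225 to 1.26 in 5/6Nx Control kidneys, against 0.120 to 0.191 in Sham Control kidneys. Every 5/6Nx kidney lay above every Sham kidney of its treatment, 5/6Nx Control replicates 1 and 6 included. In LV the ratio ranged from 0.759 to 2.69 in 5/6Nx PD rats, against 0.870 to 0.996 in Sham PD rats, and from 0.799 to 2.74 in 5/6Nx Control rats, against 0.790 to 1.22 in Sham Control rats. The LV groups overlapped, with a wider spread in 5/6Nx. The ratio was computed after the opposite changes of the receptors had been seen and was not tested.

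**Figure D2:**
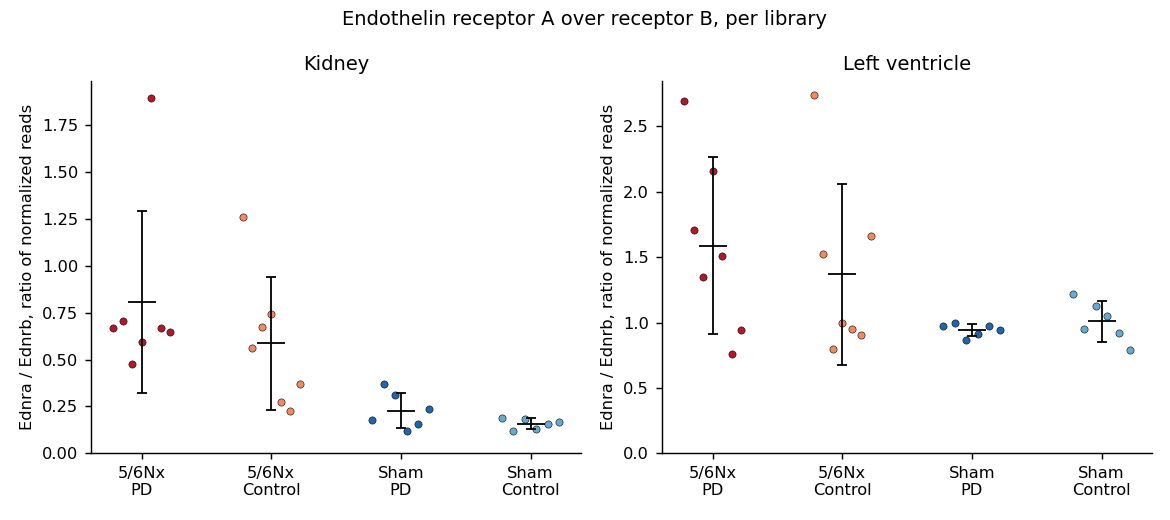
Ratio of Ednra to Ednrb normalized reads in each library of kidney (left) and LV (right), with 1 point per library and the group mean with SD. In kidney the means are 0.808 in 5/6Nx PD, 0.586 in 5/6Nx Control, 0.228 in Sham PD and 0.158 in Sham Control rats.

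Of the synthases, Nos1 was lower in the 5/6Nx kidney. It had 28.4, 77.3 and 106 normalized reads (lowest, median and highest) in 5/6Nx PD kidneys, against 98.0, 187 and 252 in Sham PD kidneys, with 6 of 7 5/6Nx libraries below every Sham library. It fell 2.60-fold (log2 change -0.78 ± 0.16, adjusted p = 0.0016), and all 13 fits without 1 library called it. In Control rats it had 36.2, 85.0 and 280.0 in 5/6Nx kidneys, against 145, 188 and 251 in Sham kidneys. Here 6 of 7 5/6Nx libraries lay below every Sham library and replicate 5, at 280.0, lay above them all. The fall was 1.81-fold (-0.61 ± 0.21, adjusted p = 0.022) and lost its call without replicates 1 and 6 (-0.47, adjusted p = 0.068).

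Markers of the thick ascending limb and macula densa gave limma calls in both directions in Control kidneys and none in PD kidneys. Of 5 markers, 0 passed with 5/6Nx in PD kidneys (limma, with 2 at an unadjusted p under 0.05 and 1 called by limma-voom), and 1 was higher and 3 were lower in Control kidneys. Their summed level ranged from 227231 to 440657 normalized reads in 5/6Nx PD kidneys, against 330418 to 589604 in Sham PD kidneys, and from 132432 to 419857 in 5/6Nx Control kidneys, against 380314 to 528008 in Sham Control kidneys, with no marker at 0. Fewer cells of a type and less RNA per cell cannot be told apart in bulk tissue, and the part of these cells in the level of Nos1 was not tested.

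Nos3 showed no call. It averaged 564 ± 197 normalized reads in 5/6Nx PD and 538 ± 129 in Sham PD kidneys, a log2 change of 0.04 (95% interval -0.34 to 0.42, adjusted p = 0.88). In Control rats it averaged 581 ± 256 in 5/6Nx and 426 ± 61.9 in Sham kidneys (0.29, -0.16 to 0.74, adjusted p = 0.26). The change in Control rats was called without 5/6Nx Control replicates 1 and 6 (0.56, adjusted p = 0.0067) and by limma-voom (0.60, adjusted p = 0.013).

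Ddah1 and Ddah2 moved in opposite directions. Ddah1 had 14978, 29271 and 33495 normalized reads (lowest, median and highest) in 5/6Nx PD kidneys, against 30810, 37137 and 45464 in Sham PD kidneys, and 4 of 7 5/6Nx libraries lay below the Sham range. In Control rats the values were 13333, 28334 and 44411 in 5/6Nx kidneys, against 34548, 42040 and 48990.0 in Sham kidneys. All 5/6Nx Control libraries but replicate 6, at 44411, lay below every Sham library. Ddah1 fell 1.42-fold in PD rats (log2 change -0.54 ± 0.17, adjusted p = 0.023) and 1.52-fold in Control rats (-0.67 ± 0.20, adjusted p = 0.013). The call in PD rats was lost without Sham PD replicate 4 (-0.48, adjusted p = 0.056), while that in Control rats was kept under every alternative.

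Ddah2 was higher with 5/6Nx. In PD rats it averaged 5118 ± 798 normalized reads in 5/6Nx and 3977 ± 953 in Sham kidneys and rose 1.29-fold (0.37 ± 0.14, adjusted p = 0.045). Only 1 of 7 5/6Nx PD libraries lay above the Sham range. The call was lost in 10 of 13 fits without 1 library, with adjusted p up to 0.107, and held without 5/6Nx PD replicates 3 or 6 or Sham PD replicate 6. It was also lost without the filter on low reads (adjusted p = 0.053) and in the joint fit of the 4 kidney groups (0.078). In Control rats Ddah2 had 4167, 5223 and 10678 in 5/6Nx kidneys, against 3306, 3508 and 4942 in Sham kidneys, and 4 of 7 5/6Nx libraries lay above every Sham library. It rose 1.57-fold (0.58 ± 0.18, adjusted p = 0.014), and the change was called in all 13 fits without 1 library (0.43 to 0.67), including the one without 5/6Nx Control replicate 1, whose value was the highest.

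Proximal tubule, where Ddah1 is abundant, lost marker expression alongside it. Of 7 proximal tubule markers 6 were lower with 5/6Nx in PD and 6 in Control kidneys, among them the phosphate transporter Slc34a1 (log2 changes of -1.96 in PD and -2.31 in Control rats). The summed level of the markers ranged from 76398 to 189860 normalized reads in 5/6Nx PD kidneys, against 292383 to 391128 in Sham PD kidneys, and from 72018 to 269342 in 5/6Nx Control kidneys, against 346587 to 438764 in Sham Control kidneys. Neither pair of groups overlapped, and no marker was at 0. The part of this loss in the level of Ddah1 was not tested.

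Gucy1a1 was higher on average in the 5/6Nx kidney and varied widely there. It had 628, 1312 and 1897 normalized reads (lowest, median and highest) in 5/6Nx PD kidneys, against 406, 630.5 and 1463 in Sham PD kidneys. The groups overlapped, with 2 of 7 5/6Nx libraries above every Sham library, and it rose 1.72-fold (log2 change 0.74 ± 0.25, adjusted p = 0.027). That call was lost in 5 of 13 fits without 1 library (5/6Nx PD replicates 2 or 5 or Sham PD replicates 3, 4 or 6), with adjusted p up to 0.062. The joint fit of the 4 kidney groups also lost it (adjusted p = 0.067). In Control rats it had 370.0, 1167 and 2143 in 5/6Nx kidneys, against 358, 521 and 688 in Sham kidneys. The change of 0.74 ± 0.35 (adjusted p = 0.092) missed the threshold and passed without replicate 1 (0.92, adjusted p = 0.035), without replicate 6 (0.92, adjusted p = 0.029), without both (1.18, adjusted p = 0.0029) and by limma-voom (1.21, adjusted p = 0.0068).

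Among 5/6Nx Control kidneys the same libraries were low for Ednra, Gucy1a1 and vascular markers. Replicates 1, 6 and 7 had 378, 370.0 and 529 normalized reads of Gucy1a1, and the other 4 libraries had 1167 to 2143. Summed markers of smooth muscle and pericytes were 13184, 9737 and 22118 in replicates 1, 6 and 7, against 33642 to 44128 in the other 4. Those of endothelium were 6685, 8390.0 and 10040, against 15364 to 24730 in the others. Over the whole groups, the smooth muscle and pericyte sum ranged from 17428 to 50677 in 5/6Nx PD and from 14420 to 22351 in Sham PD kidneys, and from 9737 to 44128 in 5/6Nx Control and from 10650 to 16011 in Sham Control kidneys, with no marker at 0. Of the 11 markers 7 rose and 1 fell in PD kidneys, and 4 rose and 0 fell in Control kidneys, while of 11 endothelial markers 1 rose and 2 fell in PD and 0 rose and 2 fell in Control kidneys. The part of vascular cells in the levels of Ednra, Gucy1a1 and Nos3 was not tested.

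**Figure D3:**
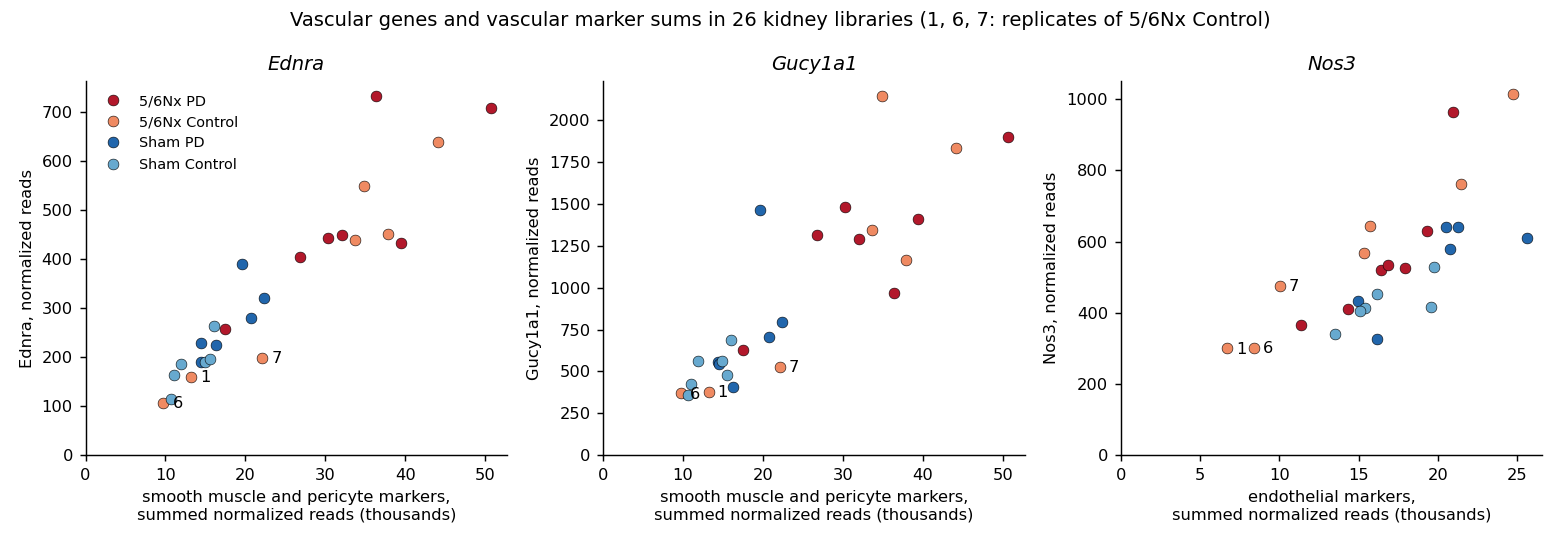
Normalized reads of Ednra, Gucy1a1 and Nos3 against summed vascular markers in each kidney library, 1 point per library, coloured by group. Replicates 1, 6 and 7 of the 5/6Nx Control group lie below the other 4 libraries of their group for marker sums, Ednra and Gucy1a1, with smooth muscle sums of 9737 to 22118 where Sham Control kidneys have 10650 to 16011.

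Macrophage and fibroblast markers also rose in the 5/6Nx kidney. All 8 macrophage markers were higher in both PD and Control rats, as were 5 of 6 fibroblast markers in PD and 4 of 6 in Control rats. Of 9 markers of the collecting duct, whose cells are known to make Edn1 and Ednrb, 0 rose and 1 fell in PD and 0 rose and 2 fell in Control kidneys. Their summed level ranged from 36962 to 88565 normalized reads in 5/6Nx PD and from 53124 to 103712 in Sham PD kidneys, and from 50096 to 131325 in 5/6Nx Control and from 76688 to 104877 in Sham Control kidneys. The part of these cells in the changes of Edn1 and Ednrb was not tested.

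Further genes of the endothelin pathway were mostly lower in the 5/6Nx kidney. Of 14 tested in PD rats, 3 were higher and 7 lower (71.4% called, against 40.1% of all genes, with a median log2 change of -0.29), and of 13 tested in Control rats 1 was higher and 10 were lower (84.6% against 52.2%, median -0.55). Those lower in both included Mme, which encodes neprilysin, a peptidase that degrades endothelin-1 (-2.41 in PD and -2.65 in Control rats), Itpr1, the receptor that releases calcium from stores (-0.86 and -1.10 in the same order), and Edn3, another endothelin (-0.83 and -0.79). Kel, whose product can cut the precursor of endothelin-3, was higher in both (0.75 in PD and 0.65 in Control rats). Cma1, a mast cell chymase that can process the endothelin precursor, was higher in PD rats (1.36).

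Of 14 genes of nitric oxide synthesis and its regulation, 5 were higher and 6 lower in 5/6Nx PD kidneys (78.6% called, against 40.1% of all genes), and 4 were higher and 6 lower in 5/6Nx Control kidneys (71.4% against 52.2%). Cav1, which encodes caveolin-1, a protein that holds NOS3 inactive, was higher in both (0.95 in PD and 0.87 in Control rats). Gchfr, the feedback regulator of the enzyme that starts tetrahydrobiopterin synthesis, was lower (-0.69 in PD and -0.80 in Control rats), as was Qdpr, which recycles biopterin (-0.67 and -0.71). Among 13 genes of arginine supply and methylarginines, 2 were higher and 4 lower in PD and 3 higher and 4 lower in Control rats. These shares of 46.2% and 53.8% were near those of all genes. The genes called included Odc1, which turns ornithine into polyamines (-1.22 in PD and -1.95 in Control rats), and Agxt2, a mitochondrial enzyme that also breaks down ADMA (-0.62 and -0.82). Prmt1, the main enzyme of asymmetric arginine methylation, was higher (0.35 and 0.53).

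Cyclic GMP genes gave few calls in the kidney, 2 higher and 3 lower of 16 in PD and 1 higher and 3 lower of 16 in Control rats, which are 31.2% and 25% and below the shares of all genes. Gucy1b2, a second guanylate cyclase beta subunit, was lower (-1.39 in PD and -2.34 in Control rats), as was Pde1a, a calcium-dependent phosphodiesterase (-0.57 and -1.01). Vasp, a substrate of the cyclic GMP-dependent kinase, was higher (0.65 and 0.94).

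In the LV of PD rats, Gucy1a1 and Ece1 were lower and Ddah1 higher with 5/6Nx, while none of these changes was called in Control rats. Of the 9 genes, 3 passed in 5/6Nx PD against Sham PD rats, 1 higher and 2 lower, where 37.8% of all genes did. Their median change was -0.38, against -0.03 over all genes. In Control rats 0 of 9 passed (limma, with 1 at an unadjusted p under 0.05 and 1 called by limma-voom), where 0.0697% of all genes did. The direction was shared by 7 of the 9 genes between these comparisons, and the share over all genes was not computed. Whether the response to 5/6Nx differed with PD was tested directly and gave 0 calls among the 9 genes (1 at an unadjusted p under 0.05, 0 by limma-voom), where 0.693% of all genes were called.

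**Figure D4:**
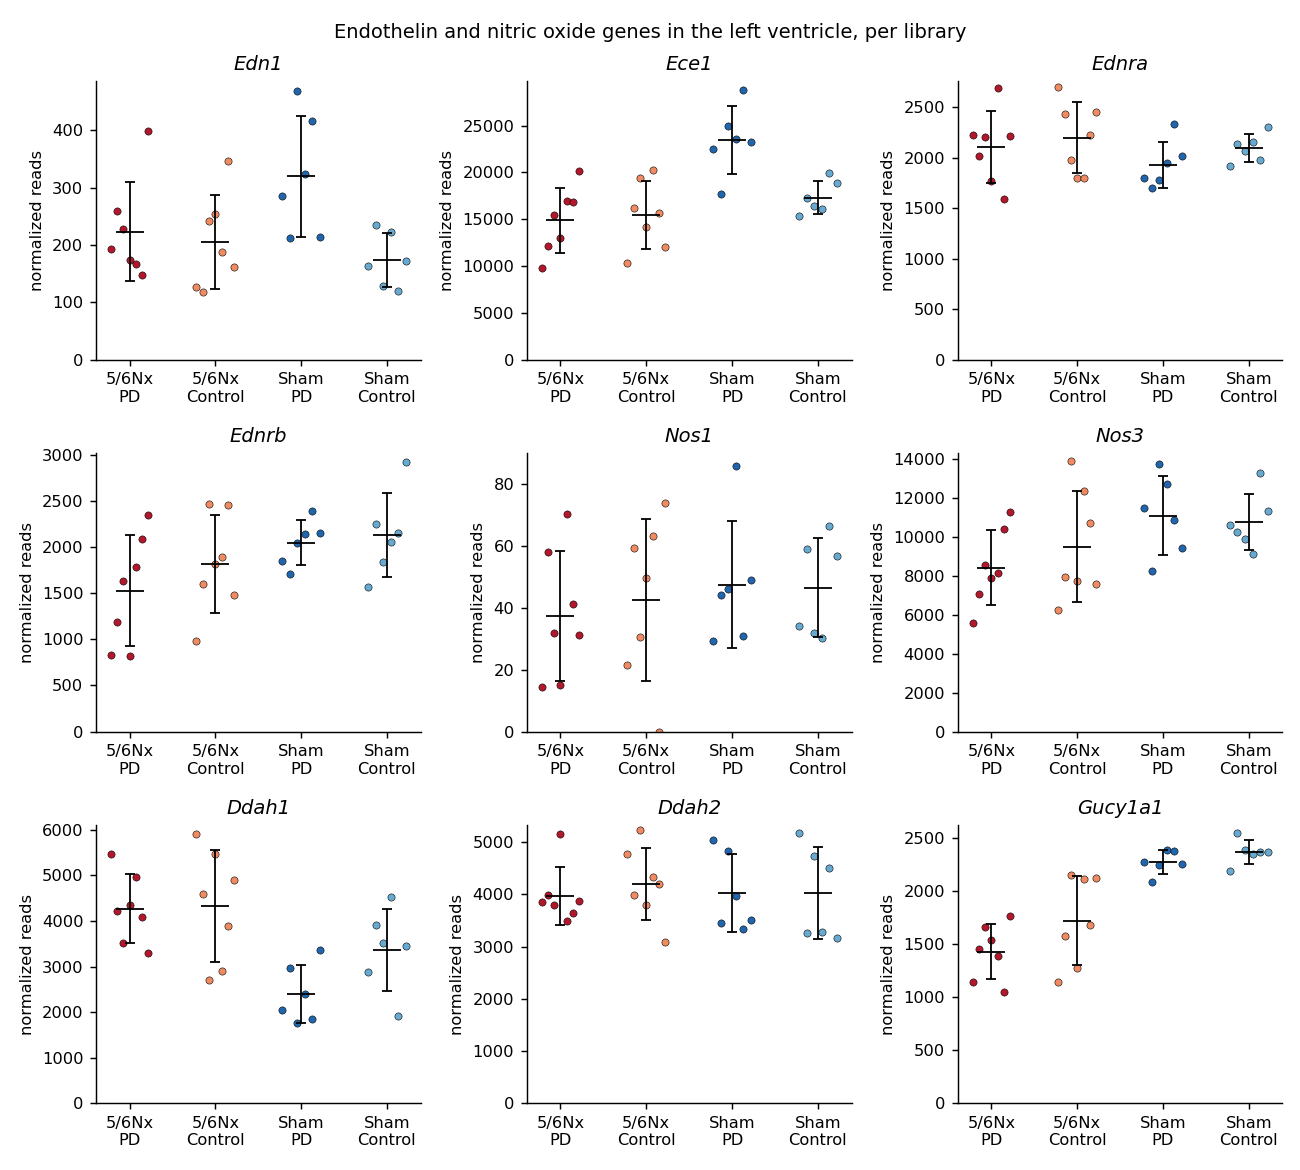
Normalized reads of the 9 genes in each LV library, with 1 panel per gene, 1 point per library and group means with SD as bars. Gucy1a1 lies between 1051 and 1765 in 5/6Nx PD ventricles, below all 6 Sham PD ventricles at 2086 to 2395.

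Gucy1a1 was the only one of the 9 genes whose 5/6Nx and Sham libraries did not overlap in LV, where 10% of all genes tested did not overlap in PD and 1.08% in Control rats. It had 1051, 1456 and 1765 normalized reads (lowest, median and highest) in 5/6Nx PD ventricles, against 2086, 2268 and 2395 in Sham PD ventricles, and the groups did not overlap. It fell 1.59-fold (log2 change -0.65 ± 0.10, adjusted p = 0.00080) and was called under every alternative (adjusted p up to 0.0030). In Control rats it had 1148, 1683 and 2154 in 5/6Nx ventricles, against 2188, 2371 and 2554 in Sham ventricles. These groups did not overlap either, but the change of -0.47 (95% interval -0.75 to -0.18) did not pass across all genes (adjusted p = 0.13), except by limma-voom (-0.51, adjusted p = 0.040). The spread was wider in 5/6Nx, with SDs of 259.8 in 5/6Nx PD and 419 in 5/6Nx Control ventricles against 112 in Sham PD and 116 in Sham Control ventricles.

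Ece1 was lower and Ddah1 higher in 5/6Nx PD than in Sham PD ventricles. Ece1 had 9818, 15457 and 20176 normalized reads in 5/6Nx PD rats, against 17725, 23416 and 28800.2 in Sham PD rats, with 6 of 7 5/6Nx libraries below every Sham library. It fell 1.57-fold (-0.67 ± 0.15, adjusted p = 0.0047). Ddah1 had 3298, 4215 and 5478 in 5/6Nx PD rats, against 1771, 2227 and 3355 in Sham PD rats, with 6 of 7 5/6Nx libraries above every Sham library. It rose 1.78-fold (0.82 ± 0.15, adjusted p = 0.0016), and both calls held under every alternative. In Control rats Ece1 averaged 15425 in 5/6Nx and 17311 in Sham ventricles (-0.19, 95% interval -0.50 to 0.11, adjusted p = 0.49). Ddah1 averaged 4338 and 3365 in the same order (0.35, -0.09 to 0.79, adjusted p = 0.38). The 5/6Nx means were close between treatments, at 14907 in PD and 15425 in Control rats for Ece1 and 4273 and 4338 for Ddah1. The Sham means lay further apart, at 23463 in PD and 17311 in Control rats for Ece1 and 2401 and 3365 for Ddah1. None of these differences with PD was called by limma.

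Nos3, Ednrb and Edn1 stood near the threshold in the same comparison. Nos3 averaged 8396 ± 1929 normalized reads in 5/6Nx PD and 11060 ± 2024 in Sham PD ventricles (-0.40, 95% interval -0.74 to -0.07, adjusted p = 0.053), and it was called without 5/6Nx PD replicate 6 (adjusted p = 0.037), without 5/6Nx PD replicate 7 (0.020), without Sham PD replicate 2 (0.022) and by limma-voom (0.012). Ednrb averaged 1527 ± 602 in 5/6Nx PD and 2047 ± 243 in Sham PD ventricles (-0.48, -0.93 to -0.03, adjusted p = 0.086) and was called without 5/6Nx PD replicate 6 (0.049) or 7 (0.026) and by limma-voom (0.042). Edn1 averaged 224 ± 86.2 and 320.2 ± 105 in these groups (-0.38, adjusted p = 0.10) and was called without 5/6Nx PD replicate 7 (0.022) and by limma-voom (0.0498). Ednra, Nos1 and Ddah2 had changes of 0.11 (95% interval -0.12 to 0.34), -0.15 (-0.46 to 0.16) and -0.01 (-0.25 to 0.23).

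Vascular, stromal and muscle markers moved in the same comparison. Of 11 endothelial markers 0 rose and 6 fell, among them Cdh5 (-0.57), and their summed level ranged from 83664 to 173944 normalized reads in 5/6Nx PD ventricles, against 124402 to 197151 in Sham PD ventricles. Of 11 smooth muscle and pericyte markers 1 rose and 4 fell. Their summed level ranged from 194955 to 273913 in 5/6Nx PD ventricles, against 162852 to 219688 in Sham PD ventricles. That list includes the desmin gene Des, and a sum follows its most abundant genes. The sum was therefore not read as a level of vascular cells in LV. All 8 macrophage markers and 5 of 6 fibroblast markers fell, and 6 of 7 cardiomyocyte markers rose. Cardiomyocyte sums ranged from 2696790 to 3777360 in 5/6Nx PD ventricles, against 1829770 to 2698840 in Sham PD ventricles. No endothelial or cardiomyocyte marker was at 0, and the part of these shifts in Gucy1a1, Ece1 and Ddah1 was not tested.

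Of 14 cyclic GMP genes 0 rose and 8 fell in the 5/6Nx PD ventricle (57.1% called, against 37.8% of all genes, with a median log2 change of -0.33). They included Gucy1b1 (listed as Gucy1b3), the beta subunit that pairs with Gucy1a1 in the active enzyme (-0.77, adjusted p = 0.0022), and the phosphodiesterases Pde1b (-0.82), Pde1a (-0.73) and Pde9a (-0.62). Gucy1a1 and Gucy1b1 lie on the same chromosome with 1 gene between them in the rat RefSeq annotation. Of 13 endothelin pathway genes 1 was higher and 4 were lower, Mme (-0.71), the second converting enzyme Ece2 (-0.65), the G protein gene Gnaq (-0.60) and Itpr1 (-0.55) being the lower ones. Of 14 nitric oxide synthesis genes 3 were higher and 3 lower, with the chaperone gene Hsp90aa1 (0.52) and the kinase gene Akt1 (0.54), whose products promote NOS3 activity, among the higher and the globin gene Cygb (-0.80) among the lower. Of 12 arginine and methylarginine genes 3 were higher and 2 lower, led by the arginine transporter Slc7a1 (0.76). The shares called in these last 3 lists, 38.5%, 42.9% and 41.7%, were near that of all genes.

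**Figure D5:**
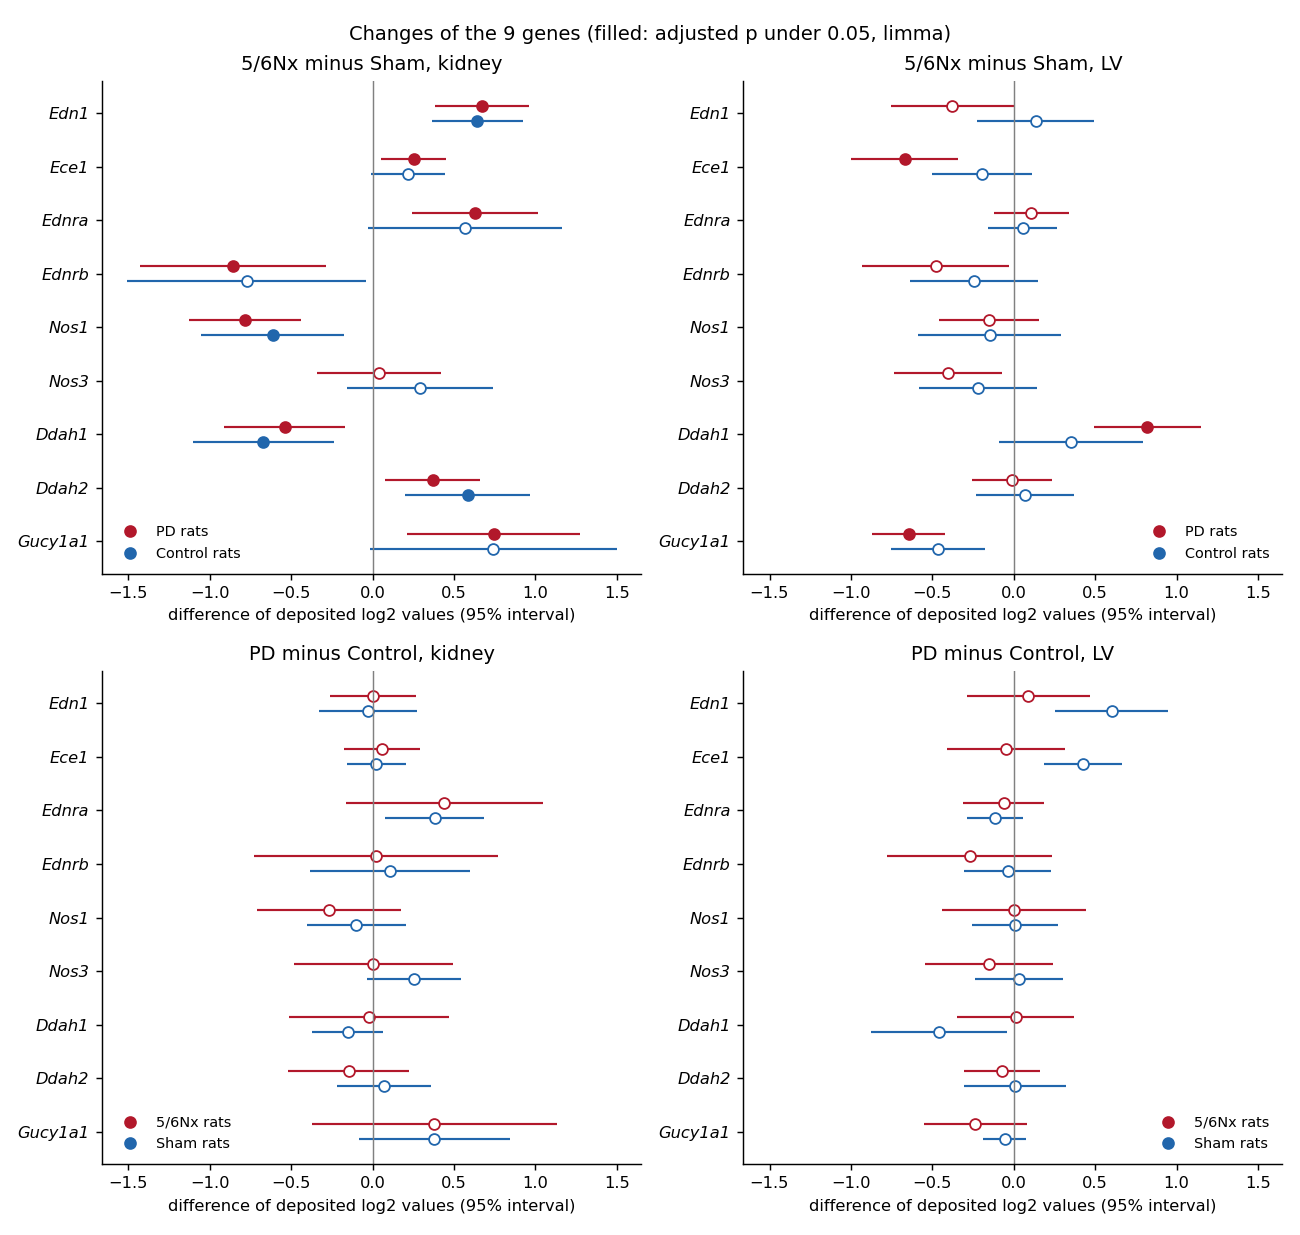
Log2 change of each of the 9 genes with its 95% interval, with 5/6Nx minus Sham and PD minus Control comparisons in separate panels for kidney and LV. With 5/6Nx, Ddah1 lies at -0.54 in PD and -0.67 in Control kidneys and at 0.82 in PD and 0.35 in Control ventricles, and Gucy1a1 at 0.74 in both kidney comparisons and at -0.65 in PD and -0.47 in Control ventricles.

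Kidney and LV were compared directly in Control rats, with the 5/6Nx change of the LV subtracted from that of the kidney. Of the 9 genes 2 passed, 1 with a more positive and 1 with a more negative change in kidney, where 33.4% of all genes did. Ddah1 differed by -1.02 ± 0.30 (adjusted p = 0.011), from changes of -0.67 in kidney and 0.35 in LV. Gucy1a1 differed by 1.21 ± 0.39 (adjusted p = 0.020), from changes of 0.74 in kidney and -0.47 in LV, although neither of these 2 changes passed alone. Both differences were called under all 6 alternatives run for them. The other 7 genes did not pass (adjusted p of 0.075 or more), but Ednra (0.86, adjusted p = 0.0044), Ece1 (0.51, 0.030) and Nos3 (0.78, 0.013) did without 5/6Nx Control kidney replicates 1 and 6. Leaving these out, 6222 of the 17544 genes tested were called. A block pairing kidney with LV libraries by specimen number, chosen after seeing the data, called 6 of the 9 genes. It added Edn1, Ece1, Nos3 and Ddah2, and it called 6502 of 17454 genes tested.

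With PD, none of the 9 genes was called by limma in either tissue or surgery group. The paper's DESeq2 tests, at the same threshold, called more genes than limma did in each tissue and surgery group. Their values for the 9 genes were not used, so the absence of calls holds for limma only. In Sham LV, PD against Control gave 0 of 9 (limma, with 3 at an unadjusted p under 0.05 and 1 called by limma-voom), where 1.23% of all genes were called. In 5/6Nx LV it gave 0 of 9 (0 at an unadjusted p under 0.05, 0 by limma-voom), where 0.0896% of all genes were called. Sham kidney gave 0 of 9 (1 and 0 by the same measures), where 0.143% of all genes were called, and 5/6Nx kidney gave 0 of 9 (0 and 0), where 0.0121% were. Pooled over surgery, 0 of 9 were called in LV (1 at an unadjusted p under 0.05, 0 by limma-voom), where 0.515% of all genes were, and 0 of 9 in kidney (1 and 0), where 0.228% were.

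In Sham ventricles Edn1 and Ece1 were the genes nearest to a call. Edn1 had 212, 305 and 469 normalized reads (lowest, median and highest) in Sham PD rats, against 120.1, 168 and 235 in Sham Control rats, with 4 of 6 Sham PD libraries above every Sham Control library. Its mean was 1.84-fold higher with PD (log2 change 0.60, 95% interval 0.25 to 0.95, adjusted p = 0.082). Ece1 had 17725, 23416 and 28800.2 in Sham PD rats, against 15395, 16825 and 19936 in Sham Control rats, with 5 of 6 above, and its mean was 1.36-fold higher (0.43, 0.19 to 0.67, adjusted p = 0.076). Without Sham PD replicate 2 both were called (Edn1 0.68, adjusted p = 0.023; Ece1 0.50, adjusted p = 0.014), and limma-voom called Ece1 (0.43, adjusted p = 0.025). Leaving out that library also brought the share of all genes called to 10.4%, against 1.23% with it. Ddah1 was lower in mean, 2401 ± 642 in Sham PD and 3365 ± 894 in Sham Control ventricles, without passing (-0.46, -0.87 to -0.04, adjusted p = 0.21).

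The same genes moved little with PD in 5/6Nx ventricles, where Edn1 averaged 224 ± 86.2 normalized reads in PD and 206 ± 81.5 in Control rats (0.09, 95% interval -0.29 to 0.47) and Ece1 14907 ± 3478 and 15425 ± 3621 (-0.05, -0.41 to 0.31). Subtracting the PD change of Sham rats from that of 5/6Nx rats gave -0.51 (-1.03 to 0.01, adjusted p = 0.29) for Edn1 and -0.48 (-0.92 to -0.03, adjusted p = 0.24) for Ece1, so a difference between the surgeries was not shown. In Sham ventricles 6 of 8 neutrophil markers and 3 of 8 macrophage markers rose with PD, while 0 of 11 endothelial markers passed (limma, with 4 at an unadjusted p under 0.05 and 2 called by limma-voom). The endothelial sum ranged from 124402 to 197151 in Sham PD and from 124548 to 165403 in Sham Control ventricles. The part of these cells in the levels of Edn1 and Ece1 was not tested.

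In the kidney the largest log2 differences with PD were in Ednra and Gucy1a1. In Sham kidneys Ednra averaged 272 ± 73.8 normalized reads in PD and 186 ± 48.6 in Control rats (log2 change 0.38, 95% interval 0.08 to 0.68, adjusted p = 0.20), and Gucy1a1 744 ± 377 and 513 ± 116 (0.38, -0.09 to 0.84, adjusted p = 0.38). In 5/6Nx kidneys Ednra averaged 489.9 ± 171 in PD and 364 ± 207 in Control rats (0.44, -0.17 to 1.05), and Gucy1a1 1284 ± 400.4 and 1109 ± 715 (0.38, -0.37 to 1.13). By the ratio of mean normalized reads, Nos1 differed most in 5/6Nx kidneys, with 70.0 in PD and 109 in Control rats. It was 1.56-fold lower with PD and was not called (log2 change -0.27, 95% interval -0.71 to 0.18). The intervals in 5/6Nx kidneys were wide, and that of Ednrb reached from -0.73 to 0.77 around a change of 0.02. Without 5/6Nx Control replicates 1 and 6 the changes were 0.10 for Ednra (adjusted p = 0.972), -0.05 for Gucy1a1 (0.987) and -0.38 for Ednrb (0.963), with 0 of all genes called. Edn1 averaged 306 ± 42.7 in 5/6Nx PD and 309.8 ± 79.2 in 5/6Nx Control kidneys (0.00, -0.26 to 0.26).

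Pathway genes gave few calls with PD. In Sham ventricles Kel was higher (0.55, adjusted p = 0.034) and Odc1 lower (-0.43, adjusted p = 0.039). In 5/6Nx ventricles and in the kidneys of both surgeries 0 genes of the 4 lists were called by limma. At an unadjusted p under 0.05 stood 0 to 2 genes per list in 5/6Nx ventricles, 0 to 5 in Sham kidneys and 0 to 3 in 5/6Nx kidneys, and limma-voom called 2 nitric oxide synthesis genes and 1 cyclic GMP gene, all in Sham kidneys. Pooled over surgery, Hsp90aa1 was higher with PD in kidney (0.46, adjusted p = 0.0022).

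Genes whose levels followed a member most closely were found over the 26 libraries of each tissue, which share surgery, treatment and cell makeup. In LV Gucy1a1 was followed most closely by its partner Gucy1b1 (Pearson r = 0.945), then by Rgs4 (0.942) and Enpp1 (0.933), of 12615 genes compared. In kidney Ddah1 was followed by Agxt2 (0.974), the other ADMA-degrading enzyme named above, then by Nipsnap1 (0.964) and Pter (0.942), of 13218 genes. Nos3 in kidney was followed by Hspa12b (0.935), Rasip1 (0.926) and Esam (0.924), the last an endothelial marker, and Ednra in kidney by Gpm6b (0.965), Kcnj8 (0.959) and Olfml2b (0.957). These correlations describe the libraries and carry no test.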

How the data were processed

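The authors extracted RNA from pulverized tissue with Trizol, made stranded TruSeq mRNA libraries, sequenced them paired-end on a NovaSeq, trimmed reads with Trim Galore and cutadapt, aligned them to rn6 with HISAT2 (2.1.1 per the labels), obtained gene counts from StringTie2 and used DESeq2 for group comparisons. Their table holds log2 values of 20624 genes in 52 libraries, and no source names its scale. The deposited log2 values follow the closed form of a variance stabilising transformation over all libraries, and its inverse gave whole reads for 100% of values within 0.01 reads. The deposited tables of the authors' own PD comparisons, with log2 fold changes, p-values and adjusted p-values, were not used.

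Each comparison was fitted with limma 3.58.1 in R 4.3.3 (eBayes with trend and robust; statmod 1.5.0), using the log2 values of its own groups. A gene was tested if its normalized reads reached 10 in a number of libraries equal to the size of the smallest group. Fold changes are ratios of mean normalized reads, and SE, intervals and p-values come from limma. The fits were tested on simulated reads.

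The members and lists were chosen with earlier results of these data known. All members were named, and of each pathway list up to 4 called genes per comparison with the largest change. A gene so named may be given in other comparisons too. Genes alike to a member are the 3 with the highest r over a tissue. Alternatives were no filter, size factors re-estimated within the fit, log2(normalized reads + 1), limma-voom (sample quality weights) on recovered reads, a joint fit of the 4 groups of each tissue, and each library left out. Leaving out libraries in the 5/6Nx comparisons of PD rats, and 5/6Nx Control kidney replicates 1 and 6 together, and pairing kidney with LV libraries by specimen number were chosen after seeing the data.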

Additional observations from a re-analysis of the deposited data

Results flagged for a closer look

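For Ddah2 a single library lay far from the rest of its group in 3 groups. LV 5/6Nx PD replicate 4 had 5156.9 normalized reads against 3484 to 3980.3 in the other 6 libraries. Kidney 5/6Nx Control replicate 1 had 10677.6 against 4167 to 6137 in the others, and it is one of the libraries that stood apart over all genes. Kidney Sham Control replicate 3 had 4941.6 against 3306 to 3779.7 in the others. Chance marks about 1 in 20 groups, and 3 of the 72 sets of a gene and a group were marked.

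The response to 5/6Nx in Control rats differed between kidney and LV by the interaction test for Ddah1 (-1.02, lower in kidney relative to LV) and for Gucy1a1 (1.21, higher in kidney relative to LV).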

How the results depend on the processing

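Over 1575 values of a gene in a comparison under an alternative, 1505 kept the direction and the side of the threshold, 38 gained and 32 lost a call, and none turned its direction while called; the cause was not tested. The labels give no replicate numbers, but specimen numbers in the titles form 26 pairs of a kidney and an LV library of the same group whose numbers differ by 26. The 2 libraries of a pair deviated from their group means with r of -0.26 to 0.38 across genes (over 0.1 in 16 pairs). Among the 6 or 7 LV libraries of its group, the own one had the highest r for 14 of 26 kidney libraries. Random matching would make it so for about 1 in 6 or 1 in 7. As the labels do not state the pairing, the main tests still took the libraries as independent. A replicate block by these pairs, chosen after seeing the data, called 6 of 9 genes for the difference between tissues, adding Edn1 (0.51, limma adjusted p = 0.042), Ece1 (0.41, 0.047), Nos3 (0.51, 0.033) and Ddah2 (0.51, 0.034), and changed no call between kidney and LV of Sham Control rats. Over all genes the block called 6502 of 17454 for the difference between tissues, against 5822 without it. By limma-voom the calls among the 9 genes were 1 for PD in Sham LV, 1 for 5/6Nx in LV of Control rats, 6 for 5/6Nx in LV of PD rats, 8 for 5/6Nx in kidney of Control rats and 6 for the difference between tissues. With it, 7386 of 15800 genes tested were called for 5/6Nx in LV of PD rats. The counts were 9582 of 16419 for 5/6Nx in kidney of Control rats and 6521 of 17454 for the difference between tissues. Without 5/6Nx Control kidney replicates 1 and 6, the calls were 7 for 5/6Nx in kidney of Control rats and 5 for the difference between tissues. Over all genes these fits called 9078 of 16476 and 6222 of 17544. Leaving out 1 library gave 0 to 2 calls for PD in Sham LV, 3 to 6 for 5/6Nx in LV of PD rats, 4 to 7 for 5/6Nx in kidney of Control rats and 3 to 8 for 5/6Nx in kidney of PD rats, the lowest without Sham PD replicate 4. Over all genes, leaving out 1 library gave 62 to 1646 calls for PD in Sham LV, the highest without Sham PD replicate 2, 2 to 24 for PD in 5/6Nx LV, 6 to 304 for 5/6Nx in LV of Control rats, 5 to 152 for PD in Sham kidney and 0 to 4 for PD in 5/6Nx kidney. For 5/6Nx in LV of PD rats it gave 4603 to 6642. For 5/6Nx in kidney it gave 7755 to 8936 in Control and 5704 to 6886 in PD rats. Over all genes limma-voom called 1279 against 194 by limma for PD in Sham LV, 644 against 11 for 5/6Nx in LV of Control rats, 927 against 113 for surgery by PD in LV, 180 against 23 for PD in Sham kidney, 139 against 84 for PD pooled in LV and 94 against 39 for PD pooled in kidney. In a joint fit of the 4 groups of each tissue, the calls were 103 for PD in Sham LV, 57 against 14 for PD in 5/6Nx LV, 253 for 5/6Nx in LV of Control rats, 7 for PD in Sham kidney and 20 against 2 for PD in 5/6Nx kidney. Without a filter, they were 9 for PD in 5/6Nx LV, 57 for surgery by PD in LV, 11 for PD in Sham kidney and 3 for PD in 5/6Nx kidney. Nos1, with at most 85.6 normalized reads in LV, is limited by depth there.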

Other observations

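Further genes of the pathways differed between the tissues of Sham Control rats, where 78.6% of all genes did. Of 14 endothelin pathway genes 7 were higher and 6 lower in kidney than in LV, with Mme (log2 difference 7.89) and Edn3 (3.43) among the higher and Plcb4 (-2.59) and Cma1 (-2.05) among the lower. Of 13 genes of arginine supply and methylarginines 9 were higher and 4 lower, led by Agxt2 (9.87), the argininosuccinate synthase gene Ass1 (6.03), the mitochondrial arginase gene Arg2 (4.10) and Odc1 (3.28). Of 14 nitric oxide synthesis genes 6 were higher, among them Pts (2.23), and 8 lower, led by Cav1 (-4.84) and Cygb (-2.63). Of 16 cyclic GMP genes 4 were higher and 9 lower, with Gucy1b2 (6.00) higher and Pde3a (-3.25), Pde2a (-2.52) and Gucy1b1 (-2.16) lower.

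Nos1 was counted at 0 reads in LV 5/6Nx Control replicate 6, where 3 counts would be 4.80 normalized reads. That limit covers counting error only.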
